A study of Mus musculus with 6 samples.

Results

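The genes described here encode 10 receptors of the β-cell surface, Glp1r, Gipr, Gcgr, Ffar1, Gpr119, Chrm3, Galr1, Sstr3, Adra2a and Npbwr1, out of 21887 protein-coding genes. Each gene was given a territory, its RefSeq span plus 10 kb on each side, and all ATAC-seq peaks in that territory were taken. Chd4, a helicase, is the motor subunit of the nucleosome remodelling complex NuRD, and the study compared chromatin in β-cells with and without it. Open chromatin was measured in 3 Chd4KO libraries, from the animals that the study's design calls Chd4Db mice, and in 3 control libraries. Both groups were treated with tamoxifen. Islets were dispersed and mature β-cells were collected by flow cytometry on the red fluorescent marker Tomato, so the marker is shared by both groups. The promoter that drives the recombinase, the age of the mice and whether each library came from its own animal are not stated by the labels, and p-values therefore measure only the spread between these libraries, which may be technical. In sorted bulk cells, a site open in fewer cells and a site less open in each cell cannot be told apart.

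All 10 receptors couple to G proteins. The receptors for GLP-1, GIP and glucagon (Glp1r, Gipr, Gcgr) and the lipid receptor Gpr119 act mainly through Gs, which raises cAMP and thereby amplifies insulin release when glucose is high. Ffar1, the long-chain fatty acid receptor, and Chrm3, the muscarinic receptor for acetylcholine, act mainly through Gq and phospholipase C. The receptors for galanin (Galr1), somatostatin (Sstr3), noradrenaline (Adra2a) and the neuropeptides B and W (Npbwr1) act through Gi or Go, which lowers cAMP, and galanin, somatostatin and noradrenaline are known to restrain insulin release.

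Sequences were available from RefSeq (GRCm38.p6, the assembly that mm10 names) for the promoters of 7 of the 10 genes. Those of Glp1r, Gpr119 and Chrm3 are shown because the region over their start was narrower in Chd4KO, and that of Adra2a because its start region was called in every library and did not pass the test. Each is the 250 bases before an annotated start, read 5′ to 3′, and the capitals mark matches to a searched motif on either strand.
Glp1r (chr17:30901617-30901866, plus strand): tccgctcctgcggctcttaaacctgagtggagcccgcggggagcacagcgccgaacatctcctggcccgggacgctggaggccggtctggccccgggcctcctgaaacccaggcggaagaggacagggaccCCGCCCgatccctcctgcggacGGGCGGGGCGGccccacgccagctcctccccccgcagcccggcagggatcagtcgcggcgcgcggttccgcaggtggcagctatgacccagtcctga
Gpr119 (chrX:48674479-48674728, minus strand): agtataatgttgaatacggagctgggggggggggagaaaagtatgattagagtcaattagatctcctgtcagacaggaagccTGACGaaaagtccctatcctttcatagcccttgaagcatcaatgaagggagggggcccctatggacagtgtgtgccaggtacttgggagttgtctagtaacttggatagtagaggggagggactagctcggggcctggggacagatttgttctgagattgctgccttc
Chrm3 (chr13:10360804-10361053, minus strand): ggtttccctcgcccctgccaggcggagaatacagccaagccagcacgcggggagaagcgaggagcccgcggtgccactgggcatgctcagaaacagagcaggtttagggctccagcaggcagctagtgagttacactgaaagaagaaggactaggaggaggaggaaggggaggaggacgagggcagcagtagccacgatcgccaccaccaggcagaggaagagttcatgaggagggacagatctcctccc
Adra2a (chr19:54045009-54045258, plus strand): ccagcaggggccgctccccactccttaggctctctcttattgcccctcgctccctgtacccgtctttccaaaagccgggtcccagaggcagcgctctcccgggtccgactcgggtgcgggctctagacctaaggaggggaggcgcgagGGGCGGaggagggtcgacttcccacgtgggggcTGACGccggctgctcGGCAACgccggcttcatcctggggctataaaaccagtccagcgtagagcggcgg
The capitals in Glp1r are 3 copies of the Sp/Klf GC box GGGCGG or its reverse complement. A GC box was held by 35.7% of the 32851 promoters of 300 bases in the RefSeq table, and Adra2a holds 1 and Gcgr 2. Gpr119 and Adra2a each carry TGACG, the core of a cAMP response element, held by 20.8% of promoters and also found at an annotated start of Sstr3. The full element TGACGTCA was in none of the 7 genes' promoters and in 1.79% of all. Adra2a also holds the RFX motif GTTGCC as its reverse complement (12.5% of promoters). Ffar1 holds the E-box CAGATG (17.2%) and the Maf motif TGCTGAC (4.67%), and an annotated start of Sstr3 holds a further CAGATG. The letters of the AP-1 motif TGANTCA (7.81%), the homeobox motif TAATTA (5.29%) and the forkhead motif TGTTTAC (3.65%) were in no promoter of these genes, and Chrm3 had no match to any searched motif.

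The promoters of Glp1r, Chrm3 and Adra2a lay wholly under peaks in all 6 libraries, as did 32.1% of all promoters, whereas 49.2% of promoters had no peak in any library. For Gpr119, 273, 256 and 256 of 300 bases were covered in Chd4KO libraries 1 to 3, against 256 bases in each control library. Gcgr had 300, 300 and 149 covered bases in Chd4KO and 300, 227 and 300 in control. The promoter listed for Ffar1 held 200 covered bases in control 3 and none elsewhere, but the annotated span of Ffar1 is only 903 bp long and the 2 Ffar1 regions called in all libraries lay further upstream.

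The Chd4KO libraries held 119088 to 124125 peaks and the control libraries 100109 to 110693, covering 65.8 to 69.1 Mb and 58.0 to 63.8 Mb. The lists hold no read counts, so depth is unknown. Covered length, the number of bases under peaks in a territory, was therefore compared after scaling every library to the mean total, and each value without scaling is given where it matters. The median log2 fold change of all genes was -0.09 with scaling and 0.06 without it. As a check of the cell type, 9 of 10 β-cell markers had a region called in all libraries at a gene end, against 63.3% of all genes. So did 4 of 5 δ-cell, 4 of 5 duct, 2 of 3 PP- and ε-cell, 3 of 8 α-cell, 3 of 6 mesenchymal, 2 of 6 leukocyte, 1 of 6 endothelial and 0 of 7 acinar markers, so a region at a gene end does not by itself mark the cell type. Summed over the lists, scaled covered length was 38.25 to 39.33 kb in Chd4KO and 42.8 to 48.2 kb in control for β-cell markers, 13.4 to 14.34 kb and 14.58 to 16.08 kb for 8 α-cell markers, and 8.82 to 9.5 kb and 9.68 to 11.14 kb for 5 δ-cell markers. The 7 acinar markers summed to 2.12 to 3.6 kb in Chd4KO and 1.09 to 1.5 kb in control, with Cpa1, Pnlip and Amy2b at 0, and the 6 mesenchymal markers to 11.01 to 11.94 kb and 9.75 to 10.07 kb. The part of these shifts in the values of the receptor genes was not tested.

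Covered length was lower in Chd4KO at 3 of the 10 receptor genes, Glp1r, Ffar1 and Npbwr1, and higher at 0 (limma, adjusted p under 0.05 over 17711 genes). Among all genes tested, 14.6% were lower and 7.57% higher, and with only 10 genes the receptors are not set apart from these shares. All 10 genes passed the minimum mean of 300 bp. The scaled values of the groups did not overlap at 5 genes, all lower in Chd4KO (Glp1r, Gipr, Ffar1, Gpr119 and Npbwr1), and 0 genes were higher without overlap, where 32.7% of all genes were lower and 13.1% higher without overlap. None of the 3 calls held without scaling, where 0 receptor genes passed in either direction and the calls over all genes turned to 2.88% lower and 14.6% higher (510 and 2586 genes, against 2577 and 1340 with scaling). Unscaled, the Chd4KO libraries lay below all controls at Ffar1 and Npbwr1 and above all controls at Galr1, Sstr3 and Adra2a. The share of all genes without overlap was not counted for unscaled values, and every Chd4KO list covered more bases in total than every control list. These unscaled separations are therefore a description only. The 3 calls also fell to 0 without Chd4KO 1, without control 1 or without control 3, and to 1 without Chd4KO 2. The lower genes over all genes fell in the same fits. They numbered 1156 of 17668 without Chd4KO 1, 1145 of 17746 without control 1, 840 of 17751 without control 3 and 1560 of 17675 without Chd4KO 2. The median log2 fold change of the 10 genes was -0.11, and 0.05 without scaling.

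**Figure D1:**
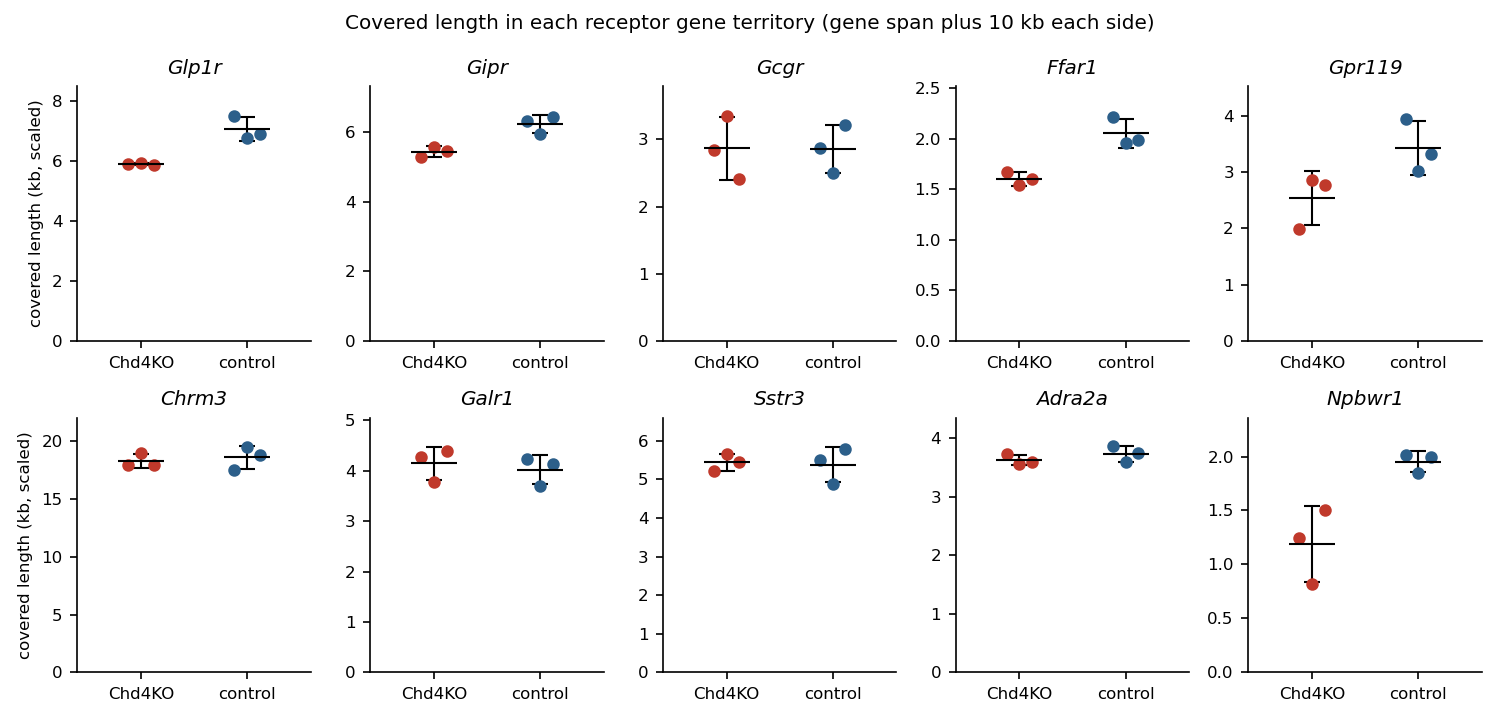
Scaled covered length (kb) in the territory of each receptor gene, with Chd4KO on the left and control on the right of each panel. Points are libraries, and bars give the mean and SD (n = 3 each). The Chd4KO points lie below the controls at Glp1r, Gipr, Ffar1, Gpr119 and Npbwr1 and overlap them at the other genes.

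Overlapping peaks were joined into 156745 regions, of which 120 lay in the receptor territories. Gained regions, called in all 3 Chd4KO and in 0 control libraries, numbered 8 (6.67% of the 120, against 10.3% of all regions). Lost regions, with the reverse pattern, numbered 3 (2.5%, against 2.62%), and 69 were called in all 6 libraries (57.5%, against 48.0%). Gained regions lay in the territories of Chrm3, Sstr3, Galr1, Adra2a and Gpr119 (5 of 10 genes, where 38.9% of all genes with a region had one), and lost regions in those of Glp1r, Gipr and Npbwr1 (3 of 10, where 15.4% had one). No receptor gene had both with this flank and definition, but this did not hold under the alternatives. With a flank of 50 kb, gained and lost regions numbered 3 and 1 at Glp1r, 2 and 1 at Gipr and 4 and 1 at Chrm3. Gipr also had 1 gained and 2 lost regions when a peak had to cover at least 50% of a region. The share of all genes with both was not counted. The gained regions had a median width of 386 bp, the same as all gained regions, and the lost ones of 276 bp, against 409 bp for all lost regions.

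**Figure D2:**
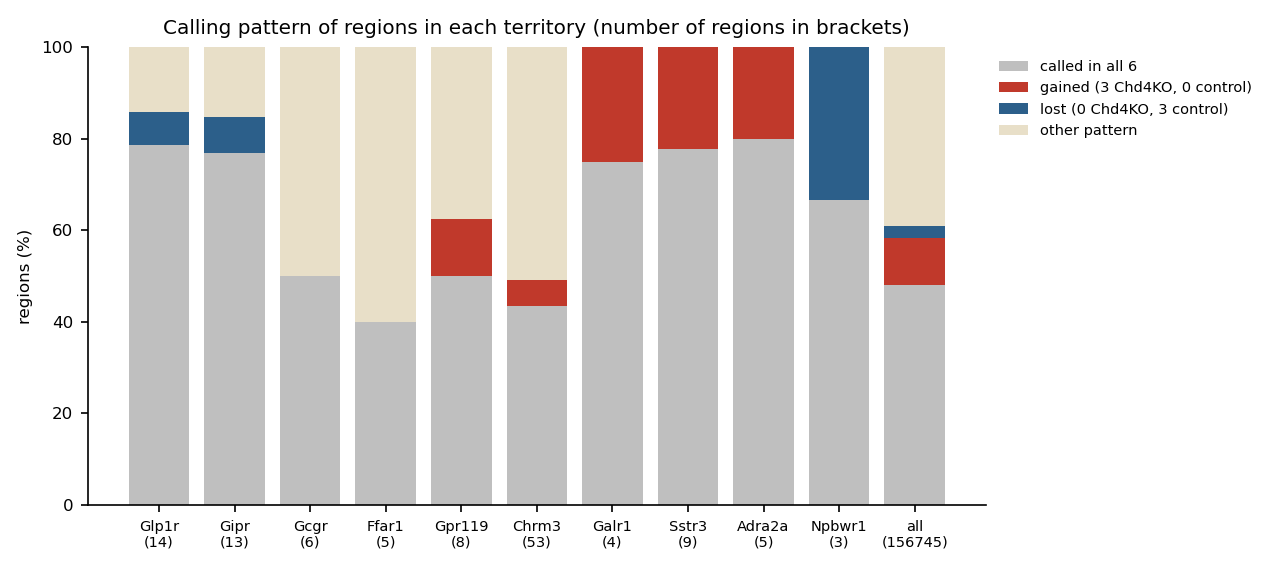
Share of regions (%) with each calling pattern in the territory of each receptor gene and among all 156745 regions, with the number of regions in brackets. Gained regions appear at Gpr119, Chrm3, Galr1, Sstr3 and Adra2a, lost regions at Glp1r, Gipr and Npbwr1, and neither at Gcgr and Ffar1.

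At the 69 regions called in all libraries, the scaled bases under peaks were compared region by region, with a fit over all 75312 such regions. Wider and narrower here mean more and fewer scaled bases, not a change in raw width. At chr13:9932502-9933424 in Chrm3, which did not pass, a mean of 863 unscaled bases in both groups gave -0.15 on the log2 scale. Peaks were wider in Chd4KO at 4 receptor regions and narrower at 8, together 17.4%, where 3.2% of all such regions were wider, 12.6% narrower and 15.8% changed in either direction. These 12 regions lay in 4 territories, Gipr with 5, Glp1r and Chrm3 with 3 each and Gpr119 with 1. All 4 wider and 4 of the 8 narrower regions also passed without scaling, where 5 receptor regions were wider and 4 narrower. Over all 75312 regions, 2407 were wider and 9510 narrower with scaling, but 3420 and 2020 without it. Their median log2 fold change was -0.14 with scaling and 0.004 without it. The excess of narrower peaks thus depended on the scaling. With a library left out the narrower count was 3 or 4 for every library except control 2, without which it was 19. The count over all regions moved with it, at 16868 of 76132 without control 2. In the other fits it ran from 2670 of 77195 to 4219 of 77187. The wider count of the receptor regions was 2 without Chd4KO 1 or 2 and 1 without control 3. A group of 4 regions passed whichever library was left out, Gipr with 2 and Glp1r and Gpr119 with 1 each. The share of all 75312 regions that did so was not counted, so these 4 cannot be set apart from it.

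**Figure D3:**
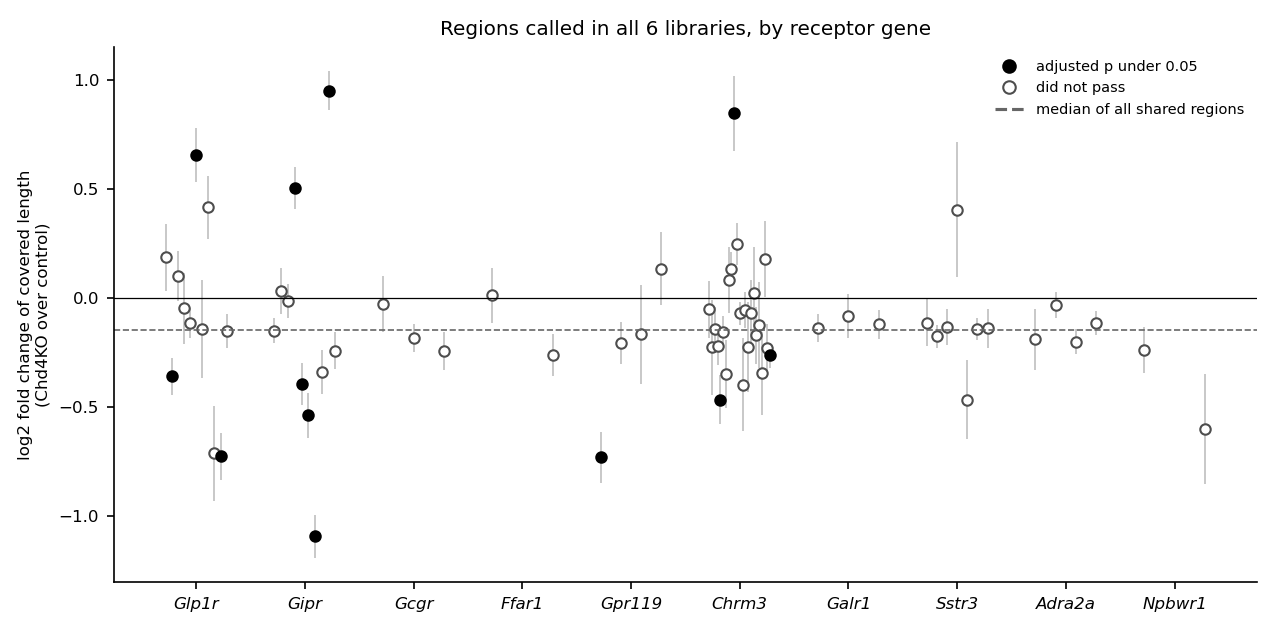
Log2 fold change of covered length (Chd4KO over control, bars show SE) of every region called in all 6 libraries, grouped by receptor gene and ordered by position. Filled points passed an adjusted p of 0.05, and the dashed line is the median of all such regions. The Gipr and Glp1r territories hold points well above and well below this line, while those of Galr1, Adra2a and Gcgr stay close to it.

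Glp1r encodes the GLP-1 receptor, the target of incretin drugs, and spans chr17:30901867-30936510 on the plus strand. Its territory had 6235, 6444 and 6073 covered bases in Chd4KO libraries 1 to 3 and 6839, 6778 and 6289 in control libraries 1 to 3. Unscaled, the groups overlapped, since Chd4KO 2 exceeded control 3. Scaled covered length was 5904 ± 32 bp in Chd4KO and 7059 ± 399 bp in control (SD, n = 3 each) and fell by 0.24 ± 0.06 on the log2 scale (SE, adjusted p = 0.027, limma), and by 0.08 without scaling (adjusted p = 0.36). The adjusted p was 0.082 without Chd4KO 1, 0.062 without Chd4KO 2, 0.074 without control 1 and 0.070 without control 3. The direction turned to 0.31 with only the 50000 strongest peaks of each library and to 0.021 with a territory of 50 kb on each side, and neither passed.

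Of the 14 regions of Glp1r, 11 were called in all libraries, 1 was lost and 2 were called in 1 control library only. The lost region, chr17:30905180-30905485 inside the gene, was covered over 306, 299 and 213 bases in the controls. Along the gene the called regions went in both directions. Over the start, at chr17:30901320-30902555, peaks covered 878, 872 and 832 bases in Chd4KO and 1107, 956 and 962 in control, without overlap (-0.36 ± 0.08, adjusted p = 0.034, and 0.11 without scaling). The authors' fold enrichment at the summit, a value of each list's own peak, was 15.69 to 16.53 in Chd4KO and 12.03 to 13.66 in control there, so the narrower peaks were not those with the lower fold. Inside the gene, at chr17:30923430-30923985, they covered 523, 538 and 474 bases in Chd4KO and 292, 277 and 200 in control (0.66 ± 0.12, adjusted p = 0.020). Every Chd4KO peak there was wider than every control peak. At a region 4312 bp downstream of the gene, chr17:30940822-30941772, coverage was 536, 521 and 516 bases in Chd4KO and 951, 792 and 761 in control (-0.73 ± 0.11, adjusted p = 0.011). Its peaks were weak, with a fold of 2.55 to 3.97 in Chd4KO and 2.63 to 3.42 in control. By −log10 q they ranked at percentiles 2.24 to 20.5 of the Chd4KO lists and 9.74 to 30.0 of the control lists. This downstream narrowing passed with any library left out, whereas the wider region inside the gene passed in 3 of 6 such fits and the start in 1 of 6. Of the 11 regions called in all libraries, those starting at bases 30910731, 30940822 and 30945600 overlapped between groups in the authors' fold. At the others, the fold of every Chd4KO library was above that of every control library. These values of separate lists were not tested.

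Gipr, the receptor for the incretin GIP, spans chr7:19156063-19170248. Peaks covered 5593, 6062 and 5628 bases of its territory in Chd4KO and 5756, 5963 and 5862 in control, which overlap. After scaling the values were 5440.4 ± 152 bp in Chd4KO and 6235 ± 247 bp in control (SD, n = 3 each) and did not overlap, but the difference of -0.19 ± 0.06 did not pass (adjusted p = 0.054) and was -0.02 without scaling. Gipr did not pass in 15 of 18 alternatives either, but passed as lower in the rest, with a lowest adjusted p of 0.037 (limma). Its regions nevertheless held the largest change of each sign among the regions of the 10 genes. Of its 13 regions, 10 were called in all libraries, and 2 of these were wider and 3 narrower in Chd4KO.

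The strongest of them lay above the upper end of the Gipr span. At chr7:19171703-19172428, 1455 bp above that end, peaks covered 282, 313 and 284 bases in Chd4KO and 610, 726 and 651 in control (-1.09 ± 0.10, adjusted p = 0.004). Every Chd4KO peak there was narrower than every control peak, with all 6 summits within 3 bp of each other. At chr7:19175567-19176520, 5319 bp above the end and next to Eml2, they covered 890, 954 and 885 bases in Chd4KO and 374, 365 and 377 in control (0.95 ± 0.09, adjusted p = 0.004). The 2 regions thus changed in opposite directions, with a region between them that did not pass, and both passed with any library left out and without scaling. The authors' fold enrichment was 3.72 to 4.56 in Chd4KO and 9.26 to 11.2 in control at the first region, and 11.1 to 12.6 in Chd4KO and 3.06 to 3.63 in control at the second.

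Inside the Gipr span a run of neighbouring regions also split. The region chr7:19164239-19164684 covered 368, 365 and 446 bases in Chd4KO and 205, 233 and 215 in control (0.51 ± 0.10, adjusted p = 0.021). Next to it, chr7:19164911-19165604 covered 499, 560 and 485 bases in Chd4KO and 664, 646 and 581 in control (-0.39 ± 0.10, adjusted p = 0.037), and chr7:19165817-19166536 covered 574, 480 and 473 in Chd4KO and 717, 683 and 690 in control (-0.54 ± 0.10, adjusted p = 0.021). None of the 3 regions overlapped between groups, which is no support beyond the test that chose them. The second did not pass without scaling (adjusted p = 0.14). With each library left out in turn, they passed in 4, 1 and 2 of 6 fits in the order given. The lost region of the territory, chr7:19178458-19178726, lay 8210 bp above the upper end at Eml2, which encodes a microtubule-associated protein, and was covered over 223, 251 and 263 bases in the controls. The territory also reaches Qpctl and Snrpd2, so its values are not those of Gipr alone. The same holds for Gcgr, whose territory reaches Mcrip1, for Ffar1 with Ffar3 and Cd22, for Gpr119 with Slc25a14 and for Sstr3 with C1qtnf6 and Rac2.

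Gcgr, the glucagon receptor, spans chr11:120529185-120538989 on the plus strand. The covered length was 3010, 3624 and 2489 bases in Chd4KO and 2610, 2496 and 2934 in control. Chd4KO 2 was the highest and Chd4KO 3 the lowest of all 6 libraries, and the scaled difference was -0.00 ± 0.12 (adjusted p = 0.99, limma). Of its 6 regions, 3 were called in Chd4KO 2 only, with 229, 262 and 220 covered bases, and the other 3 in all libraries. The region inside the gene that overlaps its annotated start, chr11:120530340-120532396, covered 1985, 1901 and 1450 bases in Chd4KO and 1557, 1464 and 1784 in control, and overlapped between groups.

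**Figure D4:**
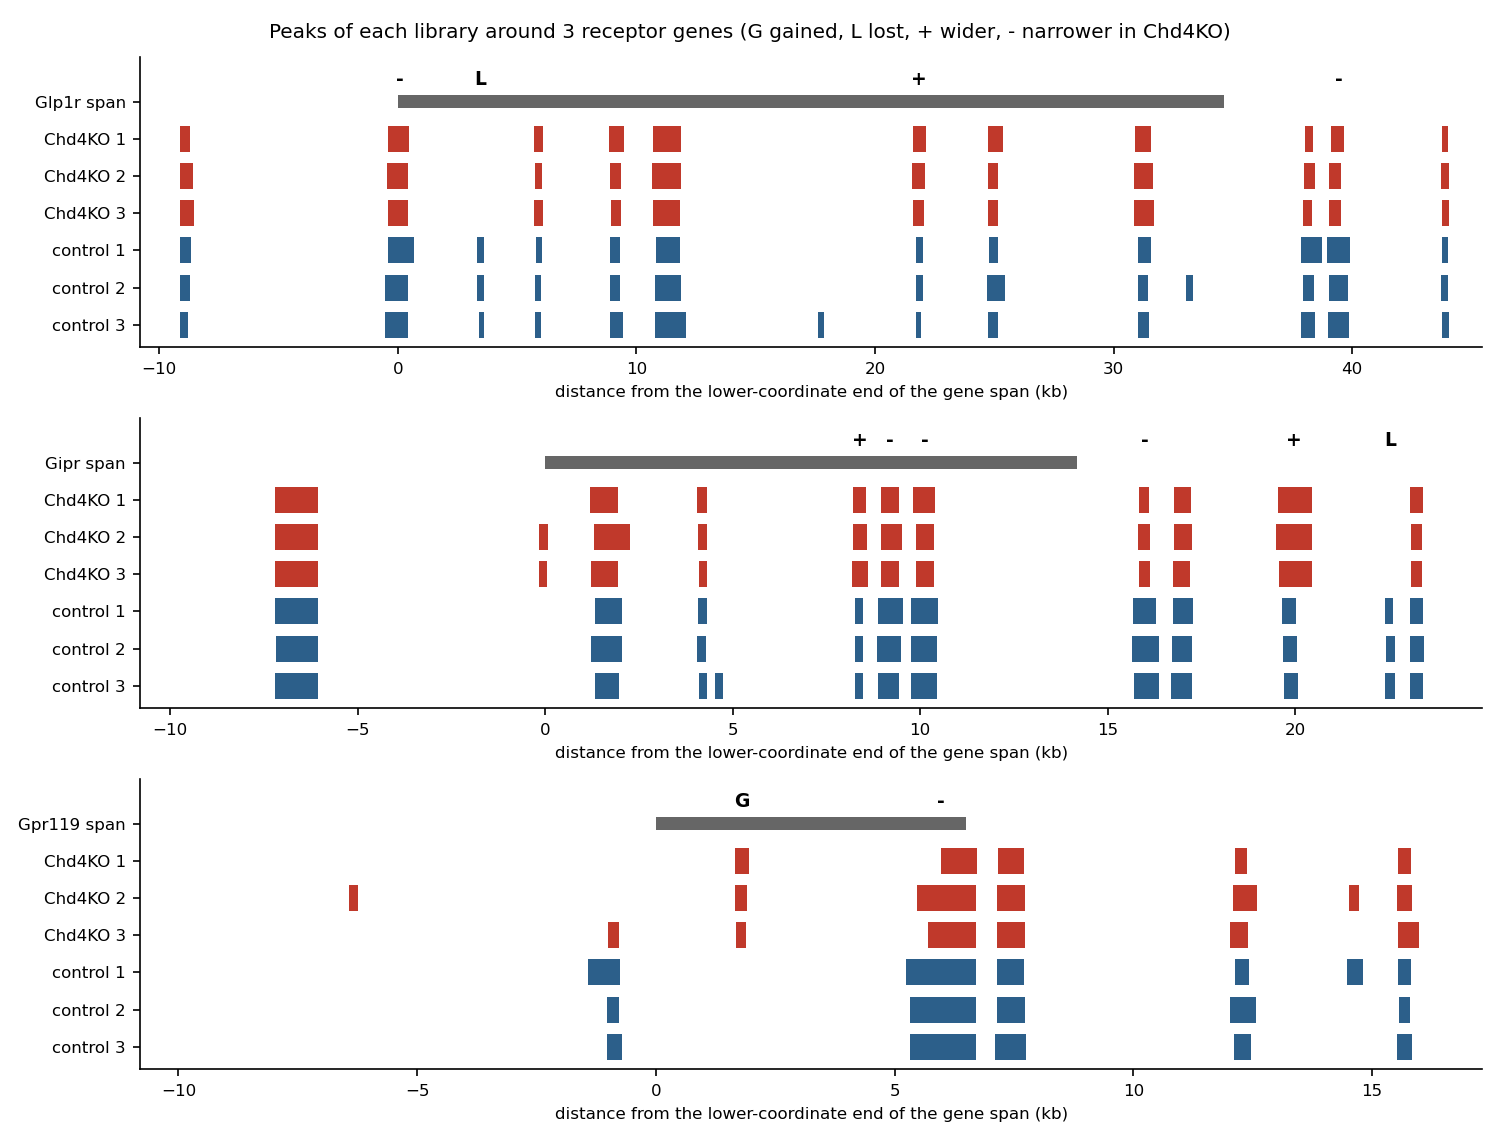
Peaks of each library (boxes) in the territories of Glp1r, Gipr and Gpr119, against distance from the lower-coordinate end of the gene span (kb), with Chd4KO libraries above control libraries and the gene span as a grey bar. Letters mark gained (G) and lost (L) regions, and signs mark regions that were wider (+) or narrower (-) in Chd4KO. At Gipr, the region at 15.6 kb narrows and the one at 19.5 kb widens in all 3 Chd4KO libraries.

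Gpr119, a receptor for lipid amides, spans chrX:48667979-48674478 on the minus strand. Its covered length was 2106, 3091 and 2859 bases in Chd4KO and 3588, 3013 and 3025 in control, with Chd4KO 2 inside the control range and the other Chd4KO libraries below it. The scaled values, 2536 ± 474 bp in Chd4KO and 3422 ± 476 bp in control (SD, n = 3 each), did not overlap, but the difference of -0.40 ± 0.14 did not pass (adjusted p = 0.073). It passed with a territory of 2 kb on each side (-0.52, adjusted p = 0.027) and of 50 kb (-0.30, adjusted p = 0.030), but was -0.0034 with windows of 250 bp around summits (adjusted p = 0.99) and -0.24 without scaling (adjusted p = 0.28). At the start of the gene, chrX:48673210-48674701, peaks covered 745, 1040 and 1005 bases in Chd4KO and 1475, 1395 and 1386 in control, without overlap. This narrowing of -0.73 ± 0.12 (adjusted p = 0.013, limma) passed without scaling and with any library left out.

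The narrowing at Gpr119 was on the side of the gene body. The upper edge of the peaks, upstream of the start, lay at base 48674684 in 5 of 6 libraries, while their lower edge lay between 48673447 and 48673957 in Chd4KO and between 48673210 and 48673299 in control. The authors' fold at the summit was 6.80 to 8.27 in Chd4KO and 4.78 to 5.14 in control, values of separate lists that were not tested. The printed upstream sequence of Gpr119 lies at the upper edge of the region and not on the side that narrowed. A gained region inside the gene, chrX:48669643-48669920, covered 278, 245 and 201 bases in Chd4KO.

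Ffar1, the fatty acid receptor, spans chr7:30860568-30861470 on the minus strand, next to Ffar3 and Cd22. Peaks covered 1769, 1670 and 1655 bases of its territory in Chd4KO and 2020, 1960 and 1816 in control, so that every Chd4KO library was below every control library. Scaled, it was 1604 ± 66 bp in Chd4KO and 2056 ± 143 bp in control (SD, n = 3 each) and fell by 0.31 ± 0.07 on the log2 scale (adjusted p = 0.023, limma), but did not pass without scaling (-0.16, adjusted p = 0.11). The adjusted p was also 0.053 without Chd4KO 1, 0.065 without Chd4KO 2, 0.066 without control 1 and 0.060 without control 3. With only the 50000 strongest peaks of each library the direction turned to 0.40, which did not pass (adjusted p = 0.27). Of 5 regions, 2 were called in all libraries and neither passed by itself. The authors' fold was 4.98 to 5.52 in Chd4KO and 3.39 to 4.42 in control at chr7:30862076-30862745. At chr7:30863232-30864059 it was 13.9 to 15.8 in Chd4KO and 12.4 to 13.2 in control. These values of separate lists were not tested. Downstream of the gene, chr7:30859981-30860460 covered 297, 0 and 361 bases in Chd4KO and 469, 467 and 215 in control, so Chd4KO 2 had no peak there and the groups overlapped.

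Chrm3, the muscarinic receptor of parasympathetic input to the islet, spans chr13:9875486-10361062 on the minus strand and is the longest of the 10 genes. The covered length of this territory was 19009, 20611 and 18538 bases in Chd4KO and 15942, 19498 and 17139 in control, which overlap through control 2. The scaled difference was -0.02 ± 0.06 (adjusted p = 0.81), and 0.15 without scaling. With 53 regions it held 3 of the 8 gained regions of the receptor genes, all inside the gene. They lay at chr13:9978437-9978911 with 475, 312 and 219 bases in Chd4KO, at chr13:10232961-10233626 with 588, 652 and 555, and at chr13:10286800-10287159 with 324, 358 and 360.

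The region over the start of Chrm3, chr13:10359296-10361451, was slightly narrower in Chd4KO, with 1860, 1928 and 1957 covered bases against 1995, 2086 and 2089 in control (-0.26 ± 0.06, adjusted p = 0.029). It did not pass without scaling (adjusted p = 0.12), and the authors' fold was 11.7 to 12.1 in Chd4KO and 10.1 to 10.3 in control. Inside the gene, chr13:10097423-10098134 was wider, with 663, 702 and 697 bases in Chd4KO and 203, 414 and 306 in control (0.85 ± 0.17, adjusted p = 0.024), and chr13:9924382-9924919 narrower, with 320, 336 and 299 bases in Chd4KO and 388, 410 and 483 in control (-0.46 ± 0.11, adjusted p = 0.037, and 0.099 without scaling). With each library left out in turn, the wider region and the start passed in 2 of 6 fits each and the narrower region in 1 of 6. The other 20 regions called in all libraries did not pass. Another 8 regions were called in 1 or 2 Chd4KO libraries only and 13 in 1 or 2 control libraries only, so weak calls went both ways in this long gene.

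**Figure D5:**
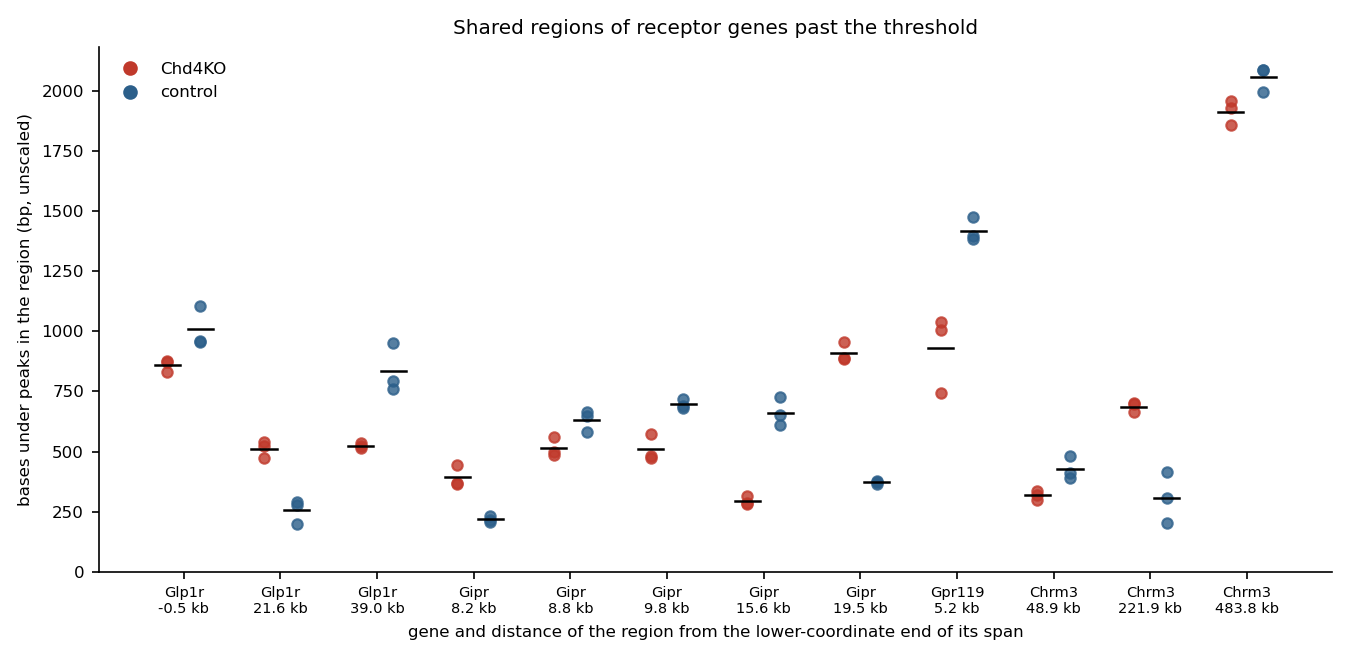
Bases under peaks (unscaled) in the 12 regions called in all libraries that passed the test, labelled by gene and by distance from the lower-coordinate end of its span (kb), with Chd4KO libraries left and control libraries right of each position and lines at the means (n = 3 each). The groups do not overlap in any of the 12 regions, which adds no support because the test on these same libraries chose them. The Gipr regions at 15.6 and 19.5 kb move in opposite directions.

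The receptors that couple to Gi or Go, which restrain cAMP, split into Galr1, Sstr3 and Adra2a on the one side and Npbwr1 on the other. Galr1, a galanin receptor, spans chr18:82392496-82406777. Its covered length was 4520, 4096 and 4537 bases in Chd4KO and 3848, 3701 and 3770 in control. Every Chd4KO library was above every control library before scaling, but after scaling the groups overlapped (4146 ± 327 bp in Chd4KO and 4019 ± 283 bp in control, SD, n = 3 each) and the difference was 0.04 ± 0.08 (adjusted p = 0.72). Part of the unscaled difference is a gained region 1604 bp below the lower end, chr18:82390195-82390892, with 548, 255 and 692 bases in Chd4KO. The 3 regions called in all libraries did not pass.

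Sstr3, a somatostatin receptor through which δ-cells act on β-cells, spans chr15:78537014-78549365 on the minus strand. In its territory, covered length was 5517, 6129 and 5642 bases in Chd4KO and 5006, 4885 and 5275 in control, again without overlap before scaling. The scaled difference was 0.02 ± 0.07 (adjusted p = 0.88) and the scaled groups overlapped. Its gained regions were both at gene ends. The region chr15:78549328-78549739 over the 5′ end of the span was covered over 412, 379 and 219 bases in Chd4KO, with an authors' fold of 2.12 to 2.72, and chr15:78536490-78536837, 177 bp downstream of the gene, over 328, 348 and 329 bases with a fold of 4.24 to 5.07. The other 7 regions were called in all libraries and did not pass.

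Adra2a, the α2A-adrenergic receptor, spans chr19:54045259-54048982 on the plus strand. Its covered length was 3940, 3861 and 3698 bases in Chd4KO and 3509, 3592 and 3419 in control, without overlap. Scaled, the groups overlapped and the difference was -0.04 ± 0.06 (adjusted p = 0.64), and 0.12 without scaling. Its lowest adjusted p among the alternatives was 0.043 (limma), and 0 receptor genes passed as higher in any of them. The region over its start, chr19:54044472-54045749, covered 1224, 1183 and 1197 bases in Chd4KO and 1249, 1234 and 1237 in control. After scaling the difference was -0.20 ± 0.06 and did not pass. A gained region of low fold, 2.26 to 2.53, lay 2648 bp downstream at chr19:54051630-54051863, with 224, 200 and 227 bases in Chd4KO.

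Npbwr1 spans chr1:5913707-5917398. Its covered length was 1320, 885 and 1556 bases in Chd4KO and 1835, 1846 and 1822 in control, and every Chd4KO library was below every control. Scaled, it was 1189.8 ± 349 bp in Chd4KO and 1952 ± 95 bp in control (SD, n = 3 each) and fell by 0.62 ± 0.16 on the log2 scale (adjusted p = 0.031, limma). Among the 10 genes this was the largest difference on the log2 scale, and within Chd4KO library 2 was lowest. Without scaling it was -0.48 (adjusted p = 0.085), and the adjusted p was 0.061 without Chd4KO 1, 0.083 without control 1, 0.072 without control 2 and 0.093 without control 3. The lost region, chr1:5904878-5905153, lay 8554 bp below the lower end and was covered over 274, 269 and 268 bases in the controls. The region at the upper end, chr1:5916406-5917953, covered 856, 463 and 1092 bases in Chd4KO and 1075, 1089 and 1066 in control, and overlapped through Chd4KO 3.

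For each receptor gene that passed, the 3 genes with the most similar scaled covered length over the 6 libraries were found, leaving out genes with a shared territory. They were Dync1li2, Gm10277 and Zfp949 for Glp1r, Ppm1l, Abcc8 and Arl14ep for Ffar1, and Hsd17b4, Gm46592 and Prr18 for Npbwr1, with Pearson's r of 0.994 to 0.998. Such values are the highest of 17711 genes over only 6 libraries that share their scaling, and describe a likeness of profile only.

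Beyond the receptors themselves, the list of 58 genes of receptor signalling was read from the same fit, and all 58 were tested. Here 4 genes (6.9%) were higher in Chd4KO and 6 (10.3%) lower, where 7.57% of all genes were higher and 14.6% lower, so the list as a whole showed no more calls than the background. Its median log2 fold change was -0.10, against -0.09 over all genes. The higher ones included 3 of the 7 adenylyl cyclases of the list, the enzymes that make cAMP. The cyclases Adcy3, Adcy5, Adcy6 and Adcy9 passed in neither direction, and whether cyclases differ from the rest of the list was not tested. Adcy1 had 7420.2 ± 149.98 bp in Chd4KO and 5305 ± 292 bp in control (SD, n = 3 each, scaled covered length, log2 fold change 0.46), Adcy8 had 5897 ± 314 bp and 4326 ± 508 bp (0.43), and Adcy2 had 8812 ± 639 bp and 6724 ± 727 bp (0.38). The fourth was Rapgef3, the cAMP sensor Epac1 (0.34). All 4 also passed without scaling, and 2 or 3 genes of the list were higher with any library left out. Over all genes the higher count fell in every such fit, from 1340 to between 676 and 1159.

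The lower genes of the signalling list were Gna13, a G protein α subunit of the G12 class (-0.36), the kinase Prkd1 (-0.35), the protein kinase A subunit Prkar2a (-0.28), the IP3 receptor Itpr1 (-0.24), phospholipase Plcb3 (-0.23) and the inhibitory α subunit Gnai2 (-0.21). None of these 6 passed without scaling, and the lower count was 0 without Chd4KO 1, 1 without control 1 or control 3, 2 without Chd4KO 3 and 3 without Chd4KO 2 or control 2. Over all genes the lower count also fell in every such fit, from 2577 to between 840 and 2229.

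Of 52 other receptors known from islets or related families, 50 were tested and Cckar and Cckbr were not kept. Among them 9 (18%) were higher and 12 (24%) lower in Chd4KO, where 7.57% of all genes were higher and 14.6% lower, and the median was -0.13. The 12 count Npy1r and Npy5r, which share the same peaks, as 2 genes. The higher ones were led by Adra2c, an α2-adrenergic receptor, with 1065 ± 142 bp in Chd4KO and 279.7 ± 82.8 bp in control (log2 fold change 1.24), and Sstr5, a somatostatin receptor, with 2118 ± 333 bp and 864 ± 578 bp (1.15). Adrb3 (0.59), the vasopressin receptor Avpr1b (0.52), the GLP-2 receptor Glp2r (0.48) and the prostaglandin receptor Ptger3 (0.44) followed, and these 6 passed without scaling too. The count of higher genes was 5 without Chd4KO 1, 6 without control 1 and 3 without control 3. Over all genes it fell from 1340 to 676, 961 and 723 in these fits.

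Lower in that list were the neuropeptide Y receptor Npy2r, with 143 ± 126 bp in Chd4KO and 1337 ± 38.5 bp in control (-1.93), the muscarinic receptor Chrm5, with 2002 ± 332 bp and 3700.3 ± 300.3 bp (-0.80), Npy1r and Npy5r (-0.77 each), the dopamine receptor Drd4 (-0.64) and the nucleotide receptor P2ry6 (-0.53). Without scaling 7 of the 12 did not pass (Drd4, Gpr158, Galr2, Chrm4, Lgr4, Drd2 and Oxtr), which left 5. The count was also 5 without Chd4KO 1, 7 without control 1 and 6 without control 3. Over all genes the lower count fell from 2577 to 1156, 1145 and 840 in these fits. Thus the α2-adrenergic and somatostatin families each had a member that passed as higher (Adra2c, Sstr5) beside one of the 10 receptors that did not pass (Adra2a, Sstr3), and the difference between the members of a family was not tested.

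Of 18 genes for ligands of these receptors, 15 were tested and Dbh, Adcyap1 and Vip were not kept. Only Npb, the precursor of neuropeptide B, passed, which is 6.67% of the 15 where 7.57% of all genes were higher. It was higher in Chd4KO, with 1814 ± 330.2 bp against 1299 ± 42.1 bp in control (log2 fold change 0.39, adjusted p = 0.042, limma). The Npb call also passed without scaling, but with a library left out it passed only without Chd4KO 3. The median of the list was -0.11.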

How the data were processed

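ATAC-seq peak lists of 3 Chd4KO and 3 control libraries were used, 1 list per library, in build mm10 per the submitters' processing notes. The peak names in the deposited files name MACS2 on shifted cutting sites, while no source used here gives its version, the aligner or any filter on reads. Per the values in the deposited files, each peak is at least 200 bp wide and has a −log10 q of at least 1.31. The deposited score, fold enrichment (a ratio), −log10 p and −log10 q are the authors' own values per peak and only described, ranked or filtered peaks. No counts were given, so depth and counting intervals are unknown.

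Peaks that overlapped by at least 1 bp were merged into regions. Genes came from the RefSeq table of GRCm38.p6, which gives spans without exons, so exons and introns were not told apart. A gene end means within 1 kb of an end of the span. Covered length was scaled to the mean library total, 300 bp were added per gene (100 bp per region) and log2 was taken, which understates changes of short lengths. Genes with a mean of at least 300 bp, and regions called in all 6 libraries, were fitted in R 4.3.3 using the limma package 3.58.1, its trended empirical Bayes step, no covariate and Benjamini-Hochberg adjustment over all features. Tables were made with Python 3.11.15, and the fit was tested on simulated data. An exact permutation test of 3 against 3 libraries cannot go below 0.1 and was not used.

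The receptor genes and gene lists were chosen with earlier results of these data known. All 10 receptors are named, with genes near gained or lost regions, up to 6 genes per direction of each list and the 3 most similar profiles. Alternatives covered scaling, the length added, the minimum, the flank, stricter and the 50000 strongest peaks, windows of 250 bp around summits, a peak over at least 50% of a region, a replicate block and each library left out.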

Additional observations from a re-analysis of the deposited data

How the results depend on the processing

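The limits of these results are those of peak lists: covered length moves with how many peaks were called and how wide they are, and with depth unknown the choice of scaling sets the direction of small differences. Without scaling, and with scaling to the regions called in all libraries, the counts were 0 and 0 lower receptor genes, 0 and 0 lower and 7 and 7 higher signalling genes, 5 and 5 lower other receptors, 2 and 2 higher ligand genes and 4 and 4 narrower receptor regions, and the log2 fold change turned to 0.15 and 0.14 at Gcgr, 0.12 and 0.10 at Adra2a and 0.15 and 0.13 at Chrm3. When only the 50000 strongest peaks per library were kept, the counts were 0 lower receptor genes, 2 lower other receptors, 2 lower and 2 higher ligand genes, 1 narrower and 1 wider receptor region, 3 gained regions and 28 regions called in all libraries, Npbwr1 was not kept, and the log2 fold change was 0.31 at Glp1r, 0.40 at Ffar1, -0.13 at Sstr3, 0.017 at Adra2a, 0.071 at Chrm3, 0.22 at Prkar2a, -0.12 at Glp2r, -0.087 at Ptger3 and 0.18 at P2ry6. Windows around summits gave 1 higher signalling gene, 4 lower and 5 higher other receptors and 2 higher ligand genes, with 0.0078 at Gcgr, 0.11 at Adra2a and -0.014 at Adcy1. A flank of 2 kb gave 5 higher other receptors, 2 lower ligand genes and 1 lost region, with -0.0046 at Galr1. A flank of 50 kb gave 1 lower ligand gene, 19 gained regions and 122 regions called in all libraries, as more of the genome was included, with 0.021 at Glp1r, -0.15 at Galr1, 0.012 at Gnai2, 0.10 at Npy1r and -0.0089 at Npb. Apart from the wider flanks, the cause of these shifts was not tested.

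With each library left out in turn, the counts ranged over 0 to 3 lower and 0 to 0 higher receptor genes, 0 to 3 lower and 2 to 3 higher signalling genes, 5 to 9 lower and 3 to 8 higher other receptors, 0 to 0 lower and 0 to 1 higher ligand genes, 3 to 19 narrower and 1 to 5 wider receptor regions, 8 to 10 gained, 3 to 6 lost and 69 to 70 regions called in all libraries. The log2 fold change ranged from -0.11 to 0.11 at Gcgr, with 0.0039 without control 1 and 0.079 without control 3, from -0.050 to 0.066 at Sstr3, with -0.0096 without Chd4KO 2, from -0.013 to 0.10 at Galr1 and from -0.063 to 0.012 at Chrm3, and the last 2 turned sign without control 2. The replicate number as a block gave 2 lower receptor genes, with an adjusted p of 0.052 at Glp1r, 0 higher ligand genes, and 6 narrower and 4 wider receptor regions. Over 17711 genes, the deviations of same-numbered libraries correlated at 0.13, 0.093 and -0.03. Chd4KO 1 and Chd4KO 2 each correlated best with the control of the same number, but Chd4KO 3 with control 1 (0.041). What the number marks is not stated, and correlations this small cannot settle it. The signs of Gipr, Gpr119 and Npbwr1 held under every alternative that gave a value, while the other receptor genes changed sign under at least 1.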
